A study of Mus musculus with 16 samples.

Results

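The genes described here encode the proteins of the cytosolic ribosome, measured as polyA RNA in punches of the mouse periaqueductal gray, a midbrain region that relays opioid analgesia. Members were the protein-coding genes whose symbols start with Rpl or Rps followed by a digit, or are Rpsa or Rplp0 to Rplp2, without pseudogene symbols, S6 kinases and symbols ending in l1, and with at least 10 counts in at least 4 of the 16 libraries. Of 38924 genes in the count files, 84 met the symbol rule and 82 met the count minimum too. These were 48 large subunit genes, 33 small subunit genes and Rps19bp1, whose symbol fits the rule although it encodes an Rps19-binding protein and not a subunit of the ribosome. The count minimum was passed last by Rpl24, with 13 libraries at 10 counts or more, and Rpl3l, with 15 libraries. It was failed by Rpl39l, with at most 9 counts in any library, and Rpl10l, with at most 1 count; both are paralogs known from testis.

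The study set wild-type mice against mice labelled RGSz1 KO, each naïve or given morphine, to ask how morphine tolerance and RGSz1 act on gene expression in this region. RGSz1 is the product of Rgs20, a regulator that shortens signalling by G proteins. All animals were male, each library pooled punches from 2 animals, and each of the 4 groups (wild-type naïve, wild-type morphine, RGSz1 KO naïve, RGSz1 KO morphine) had 4 libraries called biological replicates. The labels give no dose, duration, vehicle treatment, age or strain, so naïve means only that label, and they do not say which part of Rgs20 the knockout removes.

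Rgs20 was measured in all 16 libraries at about the same level. In CPM, the counts per 1000000 assigned reads after TMM scaling, it ran from 11.6 to 13.4 in wild-type naïve, 11.9 to 14.4 in wild-type morphine, 11.9 to 14.0 in knockout naïve and 11.4 to 13.0 in knockout morphine libraries, so knockout and wild-type ranges overlapped and the gene count does not bear out the genotype label. A deletion that leaves most of the transcript in place would not show in a gene count, and "knockout" below means the label. Gene counts totalled 19077000 to 54995323 a library, and the members took 0.699% to 0.794% of them. Reads tallied outside single genes made up 38.2% to 40.6% of all tallied reads. The 37 genes encoded by mitochondrial DNA had 0 counts in every library. Serotonin neuron markers (9 of 10 higher) and oligodendrocyte markers (7 of 10 lower) changed with morphine in the knockout libraries by edgeR's quasi-likelihood test at an adjusted p under 0.05. In that comparison 11.5% of all tested genes were called. In wild-type libraries 4.41% of all tested genes and none of these markers were called with morphine. On a centred log2 scale the mean of the 10 serotonin markers ran from -1.78 to -0.47 in knockout naïve and from 0.09 to 1.38 in knockout morphine libraries, and that of the 10 oligodendrocyte markers from 0.12 to 0.38 and from -0.40 to -0.08. The interaction called none of these markers. Averaged over genotypes, 17.1% of all tested genes were called with morphine. There 9 of 10 serotonin markers rose and 4 of 10 oligodendrocyte markers fell. In the same comparison 7 of 10 microglia markers were lower, and of 10 endothelial markers 4 fell and 1 rose. Of 10 neuron markers 2 rose, of 10 astrocyte markers 1 rose and 2 fell, and of 5 red blood cell markers 2 fell. In each genotype alone 3 endothelial markers fell, and in wild type 1 rose. The mean of the 10 microglia markers was at most -0.08 in every morphine library of either genotype and at least -0.01 in every naïve library. The mean of 10 meningeal fibroblast markers stood at 2.34 in wild-type naïve library 2 and 1.83 in knockout morphine library 3, against at most 0.70 in the others. In punches, fewer cells of a type and less RNA per cell cannot be told apart. The part of these markers in the members' values was not tested.

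The ribosome's large subunit joins amino acids into protein and its small subunit reads the mRNA; most of the proteins are present in a single copy per ribosome, and cells make the set in matching amounts. In mammals many of these mRNAs begin with a cytosine followed by a run of pyrimidines, the 5′ terminal oligopyrimidine (TOP) motif, through which the kinase mTORC1 and the protein Larp1 set their translation as a group. In neurons, ribosomal protein mRNAs are also found in axons and dendrites, where new protein supports synaptic change.

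The shared start of these mRNAs can be read in the RefSeq start sites of build GRCm38.p6. A start site was found for 62 members, and 14 of them (22.6%) had at the start site itself a C followed by at least 4 bases that were all C or T, against 3.01% of 27025 genes of the same table. Within 10 bases of the start the run was present in 37 of 62 members (59.7%) and in 34.4% of all genes. Each window below gives 10 bases before the start and 20 bases from it, 5′ to 3′ on the gene's own strand, with the run at the start in capitals. The first 8 show the motif in members of both subunits, including Rps6, the S6 kinase substrate, and Rps27 with its retrotransposed copy Rps27rt.
Rplp2 (chr7:141447641-141447670, + strand): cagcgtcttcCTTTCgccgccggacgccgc
Rpl15 (chr14:18270967-18270996, - strand): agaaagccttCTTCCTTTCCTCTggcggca
Rpl38 (chr11:114668570-114668599, + strand): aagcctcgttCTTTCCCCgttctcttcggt
Rps6 (chr4:86857348-86857377, - strand): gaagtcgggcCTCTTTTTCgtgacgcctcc
Rps15a (chr7:118116128-118116157, - strand): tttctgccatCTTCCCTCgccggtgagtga
Rps18 (chr17:33955646-33955675, - strand): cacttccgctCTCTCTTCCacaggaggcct
Rps27 (chr3:90213629-90213658, - strand): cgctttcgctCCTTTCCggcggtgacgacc
Rps27rt (chr9:114982720-114982749, - strand): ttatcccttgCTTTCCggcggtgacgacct
The next 3 members, which differed between genotypes in the results that follow, have no such run at the listed start.
Rplp0 (chr5:115559457-115559486, + strand): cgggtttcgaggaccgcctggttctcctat
Rps7 (chr12:28635934-28635963, - strand): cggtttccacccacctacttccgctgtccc
Rps13 (chr7:116334171-116334200, - strand): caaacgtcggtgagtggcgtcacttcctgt
Rps27 and Rps27rt share the bases that follow the run. Rps7 has such a run within 10 bases of the listed start, and Rplp0 and Rps13 do not. Rpl34, which also differed between genotypes, has no run at either of its listed starts and a run within 10 bases of both. A listed start can lie some bases from the start used in this tissue, so a window without the run says only that these letters are not at the listed position.

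Levels were compared between genes per kilobase of exon. The median member had 40.2 CPM per kb, with 38.3 in the large subunit and 45.9 in the small subunit, with quartiles of 24.95 and 65.05. The highest was Rplp1, a flexible stalk protein that helps recruit elongation factors, at 374 CPM per kb. It was followed by Rps15 at 247, Rpl4, which lines the exit tunnel for the new chain, at 229, Rpl8 at 176 and Rps21 at 151. These same 5 genes led when 1 mRNA per gene was used for length in place of all exons.

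The 3 stalk genes are known to act as a complex in which Rplp0 holds pairs of Rplp1 and Rplp2. Their levels per kb of exon were 46.5 for Rplp0, 374 for Rplp1 and 33.7 for Rplp2. With 1 mRNA per gene for length they were 56.8, 374 and 166, so the order of Rplp0 and Rplp2 turned on the length used. Rpl3, which helps shape the catalytic centre, had 85.1 CPM per kb. Rpl10, a protein that joins the subunit last and tests it, had 43.8. Rpl41, the shortest of the ribosome's proteins, had 72.7, Rpl39 of the exit tunnel had 26.9, and Rpl22 had 23.4. These levels also depend on the length used, and Rpl22 had 144 with 1 mRNA per gene. In the small subunit, X-linked Rps4x had 95.7 CPM per kb, Rps6 had 74.6, Rpsa, also known as the laminin receptor, had 65.1, and Rps27a, made as a fusion with ubiquitin, had 43.0.

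Several paralogs lay at the low end. Rpl3l, the form of Rpl3 known from striated muscle, had 0.292 CPM per kb, the lowest of all members, against 85.1 for Rpl3. Rps27l, a paralog induced by p53, had 9.86 CPM per kb and Rps27 had 14.3. Rpl36al had 14.9 and its X-linked counterpart Rpl36a had 28.7. The remaining low values were 0.416 for Rpl24, 4.01 for Rpl29 and 10.0 for Rps19bp1.

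Sequence shared with other genes touches these values. Ribosomal protein genes have many processed pseudogenes, and a read that fits several loci is not assigned to a gene when only unique alignments are counted. Of each member's distinct stretches of 50 bases, a median of 37.1% were also found in transcripts of another gene, with a range from 0% in 3 members, Rpl3l and Rps19bp1 among them, to 95.1% in Rpl35. In 28 members over 50% of the stretches were shared, and 79 members shared at least 1 stretch with a pseudogene. Rpl29 shared with 81 pseudogenes, and Rpl24 overlaps Gm28037 on the same strand and shared 81.7%. The share and the level per kb had a Spearman rho of 0.095 across the 82 genes, which are not independent replicates. Another gene overlaps 46 members, in many cases a small nucleolar RNA gene; the kit named in the labels does not mark strand, so reads of overlapping genes cannot be told apart. Levels of such members are therefore uncertain, and whether the same share of a gene's reads was lost in every library was not tested.

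**Figure D1:**
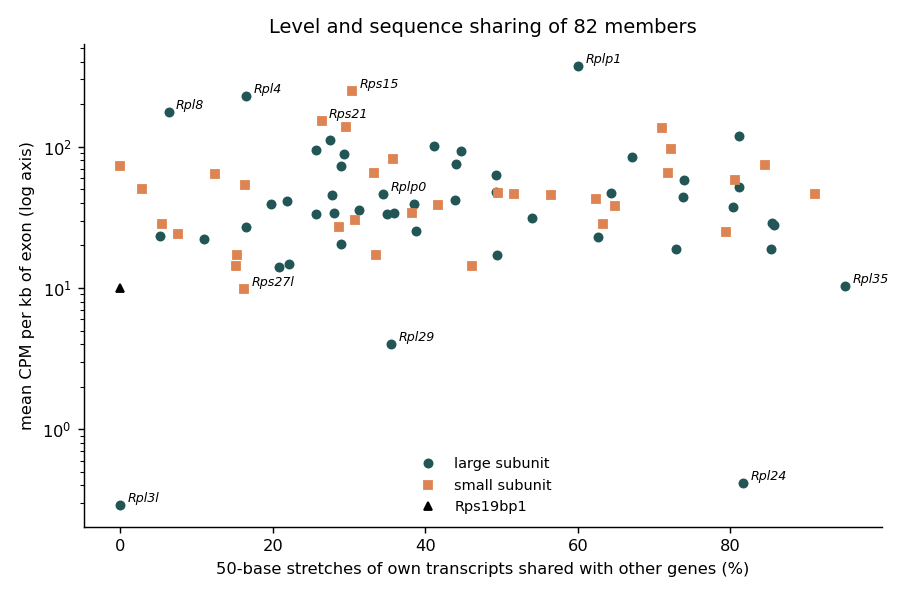
Mean CPM per kb of exon over 16 libraries (log axis) against the percentage of a member's distinct 50-base stretches found in transcripts of other genes. Each point is 1 of 82 members, with symbols for large subunit, small subunit and Rps19bp1; Rplp1 is highest at 374 CPM per kb, and Rpl3l and Rpl24 lie more than a decade below the main cloud.

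Members rose and fell together from library to library. For each member the log2 CPM was set against the mean of the other members over the 16 libraries, and the median Pearson r was 0.755. The r was above 0.5 in 61 of 82 members and above 0.8 in 31. For 2368 non-members of similar level the median r with the members' mean was -0.02. These are descriptions over libraries that share their scaling, and no test was made. Rpl7a, Rpl14 and Rps12 followed the set closely, with r of 0.90, 0.90 and 0.90. The 4 lowest were Rpl3l at -0.20, Rps15a at -0.17, Rps19bp1 at -0.13 and Rpl29 at -0.08.

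The shared movement was small and did not follow the groups. The mean of all members on a centred log2 scale was 0.009, -0.004, -0.016 and 0.041 in the 4 wild-type naïve libraries and -0.034, 0.044, -0.021 and 0.069 in the wild-type morphine libraries. It was -0.024, -0.006, -0.156 and 0.083 in the knockout naïve libraries and 0.027, -0.085, 0.020 and 0.054 in the knockout morphine libraries. All 4 groups overlapped, and the widest spread was among the knockout naïve libraries, which held both the lowest and the highest value. In the lowest, knockout naïve library 3, only 4 of 82 members were above their own mean, and the large and small subunits moved alike (-0.164 and -0.148). In knockout naïve library 4 they stood at 0.10 and 0.06.

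**Figure D2:**
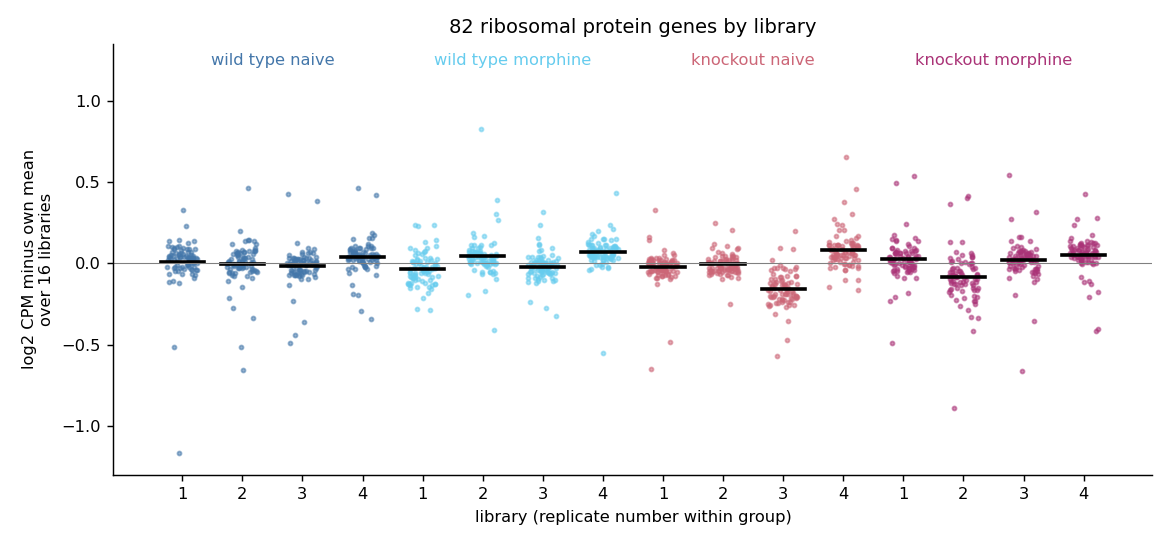
Log2 CPM of each of the 82 members minus its own mean over 16 libraries, by library. Points are genes, bars the mean over members; knockout naïve library 3 has the lowest bar, at -0.156, and knockout naïve library 4 the highest, at 0.083.

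Of the technical tallies compared, 1 moved with this shared level. Over the 16 libraries the share of reads with more than 1 alignment ran from 24.1% to 26.5%, with the highest value in knockout naïve library 3 and the lowest in knockout naïve library 4. Its Pearson r with the members' mean was -0.764 (permutation p 0.0005, adjusted 0.002 over 4 relations; Spearman rho -0.724, permutation p 0.00224, adjusted 0.00896). Without the 2 libraries farthest from the median share, knockout naïve 3 and knockout morphine 2, r was -0.525. The total gene count (r 0.196, permutation p 0.480, adjusted 0.639; rho 0.056, p 0.841, adjusted 0.899) and the share of reads outside annotated features (r 0.037, permutation p 0.894, adjusted 0.894; rho -0.035, p 0.899, adjusted 0.899) showed no such relation that passed the test. Without their own 2 farthest libraries r was 0.114 and 0.285. The mean of the mitochondrial ribosomal protein genes, which form a separate ribosome, had r 0.519 (permutation p 0.039, adjusted 0.079; rho 0.553, p 0.028, adjusted 0.056), and 0.572 without its 2 farthest libraries. Members are short, with a median mRNA length of 731.5 bases. In knockout naïve library 3 the median of 88 non-members of similar level under 1000 bases was -0.075. That of 2264 longer ones was 0.004, against -0.161 for the members. Short non-members and members did not move together in every library. In wild-type naïve library 2 the short non-members stood at -0.077 and the members at 0.006. In knockout morphine library 2 they stood at -0.022 and -0.082. The part of these measures in the members' values was not tested.

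In the median, members varied less between libraries than all tested genes and more than non-members of similar level. The median SD of log2 CPM over all 16 libraries was 0.084 for members, 0.125 for all tested genes and 0.069 for the non-members of similar level. The largest SDs were those of Rpl24 (0.54), Rplp0 (0.45), Rpl3l (0.35) and Rpl29 (0.29). Rpl24, Rpl3l and Rpl29 had the lowest mean counts of all members (15.8, 17.9 and 164.1 a library), where counting error is largest, and Rplp0 was not among them.

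Differences were tested with edgeR's quasi-likelihood method over 18111 genes, with Benjamini-Hochberg adjustment over all of them and an adjusted p under 0.05 counted as called. Morphine left the ribosomal protein set nearly level in wild-type mice. Of 82 members 1 was called, Rpl29, while 4.41% of all tested genes were called, 2.34% higher and 2.07% lower. The median log2 fold change was 0.00 over members and -0.01 over all tested genes, and 41 of 82 members were above 0. For 74 of 82 members the 95% interval lay within a 1.25-fold change in either direction, against 57.7% of all tested genes. The median SE was 0.052 for members and 0.075 for all tested genes. The members were not alone in this. The interval lay within 1.25-fold for 28 of 29 initiation factor genes and 74 of 76 tested mitochondrial ribosomal protein genes, lists described below.

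Rpl29, a large subunit protein that also binds heparin, was the called member and one of low count. Its level was 4.28, 2.80, 3.26 and 3.49 CPM in the wild-type naïve libraries and 4.67, 5.48, 4.58 and 4.75 in the wild-type morphine libraries, so the groups did not overlap. The log2 fold change was 0.51 ± 0.14 (SE, n = 4 per group; edgeR adjusted p = 0.0475). The call was lost without any 1 library other than wild-type naïve 1 and the 4 knockout morphine libraries (edgeR adjusted p 0.0547 to 0.150), and also with the replicate number as a block (adjusted p = 0.0838). Groups were disjoint for 4 members in all, 3 higher, among them Rps19bp1, and 1 lower, Rpl12; 11.0% of all tested genes had disjoint groups in this comparison.

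In the knockout mice no member was called with morphine by edgeR, while 11.5% of all tested genes were, 5.67% higher and 5.83% lower. At an unadjusted p under 0.05 edgeR had 11 of 82 members and 4612 of 18111 tested genes. DESeq2 called 3 members and 2405 genes, and limma-voom 0 members and 1987 genes. The median member log2 fold change was 0.03, against 0.00 over all tested genes, and 65 of 82 members were above 0. This shift rested on knockout naïve library 3: without it the median was -0.001 and 43 of 82 members were below 0. The member nearest to a call was Rps2, a small subunit protein near the mRNA entry. Rps2 had 82.7, 79.9, 72.2 and 80.9 CPM in the naïve and 91.1, 80.9, 85.5 and 90.1 CPM in the morphine libraries, a log2 difference of 0.14 ± 0.05 (SE; edgeR adjusted p = 0.0545). The naïve and morphine libraries were disjoint for 6 members, all higher with morphine (Rpl4, Rpl15, Rpl23, Rps14, Rps20 and Rps26), and for 17.1% of all tested genes.

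Averaged over both genotypes, 5 members rose with morphine and none fell, against 17.1% of all tested genes called, 9.02% higher and 8.03% lower. They included Rpl23, Rps14, Rpl15 and Rpl29, and Rpl29 alone rose by more than 0.1 on the log2 scale. The median member log2 fold change was 0.01, and 50 of 82 were above 0. The 95% interval lay within 1.25-fold for 78 of 82 members, and for 65.7% of all tested genes. It did so for 29 of 29 initiation factor genes and 76 of 76 tested mitochondrial ribosomal protein genes.

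Rpl23, a large subunit protein at the face between the subunits, had 156, 153, 150 and 159 CPM in wild-type naïve and 161, 161, 159 and 164 CPM in wild-type morphine libraries. In knockout naïve libraries it had 153, 153, 154 and 153 CPM, and in knockout morphine libraries 166, 162, 155 and 164 CPM. The knockout groups were disjoint, and in wild type naïve library 4 lay just above the lowest morphine library. Its averaged log2 fold change was 0.07 ± 0.02 (SE; edgeR adjusted p = 0.0203), and the call was lost without wild-type naïve library 3 (adjusted p = 0.0560) and with no filter on low counts (adjusted p = 0.0581).

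Rps14, whose loss in people is linked to a bone marrow failure, rose by 0.08 ± 0.02 on the log2 scale (edgeR adjusted p = 0.0282), and Rpl15, which carries the TOP motif printed above, by 0.10 ± 0.03 (edgeR adjusted p = 0.0348). Rpl29 rose by 0.31 ± 0.10 (edgeR adjusted p = 0.0402). Its level was 4.31, 4.73, 4.72 and 4.98 CPM in knockout naïve libraries. In knockout morphine libraries it was 3.76, 5.87, 4.58 and 5.98 CPM, so the knockout groups overlapped, unlike the wild-type groups. These calls did not hold without every library: the Rpl29 call was lost in 11 of 16 fits that left out 1 library (edgeR adjusted p 0.0514 to 0.0964) and with the replicate number as a block (adjusted p = 0.0648). The Rpl29 call was kept without wild-type naïve 1 or 4, wild-type morphine 3, or knockout morphine 1 or 3. The Rpl15 call was lost in 7 of 16 (edgeR adjusted p 0.0510 to 0.0832), those without wild-type naïve 3, wild-type morphine 2, knockout naïve 1, 2 or 3, or knockout morphine 1 or 2. The Rps14 call was lost in 3 of 16 (edgeR adjusted p 0.0532 to 0.0700), those without wild-type naïve 3, wild-type morphine 4 or knockout naïve 2, and with no filter on low counts (adjusted p = 0.0561). Without wild-type naïve library 3 the count of called members fell from 5 to 1, and without knockout naïve library 2 to 2; it was 3 without wild-type morphine library 2, wild-type morphine library 4 or knockout naïve library 1.

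**Figure D3:**
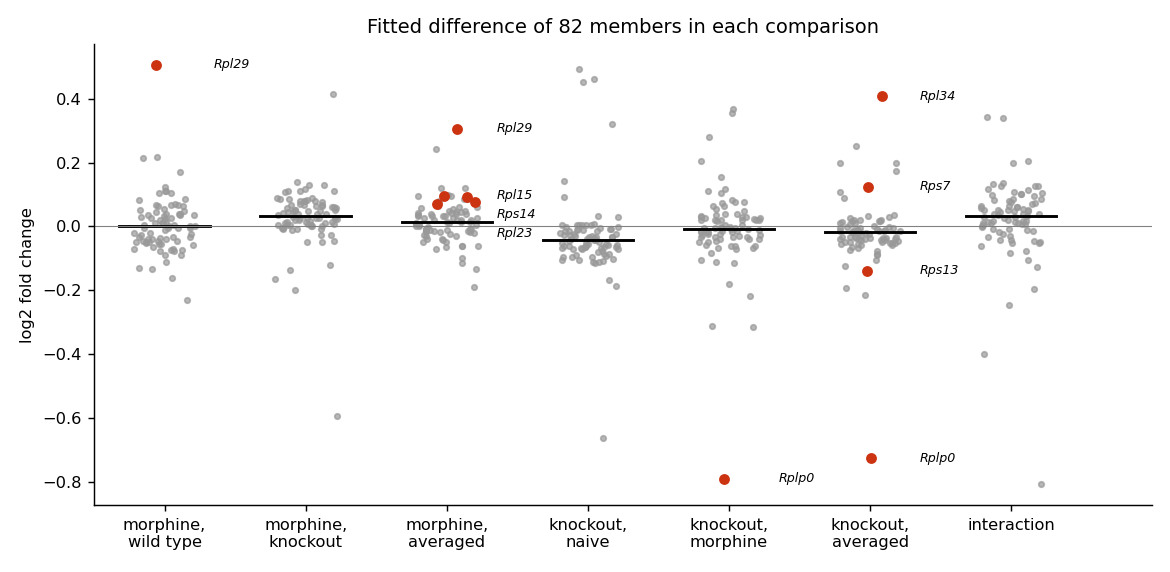
Fitted log2 fold change of the 82 members in 7 comparisons, where knockout means libraries so labelled and the interaction is the morphine change in knockout minus that in wild type. Grey points are members, red points those with an edgeR adjusted p under 0.05 (1 of them without a name), bars the median over members; Rplp0 lies apart at -0.79 in morphine and -0.73 averaged over treatments.

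Between genotypes the set again stayed nearly level, while 1 member, Rplp0, stood apart. In naïve mice no member was called by edgeR, against 0.906% of all tested genes (0.442% higher and 0.464% lower). At an unadjusted p under 0.05 edgeR had 9 of 82 members and 2345 of 18111 tested genes. DESeq2 called 2 members and 376 genes, and limma-voom 1 member and 221 genes. The median log2 fold change was -0.04 over members and 0.00 over all genes, and 67 of 82 members were below 0. Without knockout naïve library 3 the median was -0.003 and 43 of 82 members were below 0. Under morphine 1 member was called, Rplp0, lower in knockout libraries, against 0.53% of all tested genes (0.254% higher and 0.276% lower), and the median member log2 fold change was -0.01. Without knockout morphine library 2 that median was 0.03. Naïve libraries of the genotypes were disjoint for 8 members, with Rpl29, Rpl30 and Rpl34 higher in knockout and Rplp0, Rplp1, Rps2, Rps9 and Rps13 lower, and for 8.13% of all tested genes. Morphine libraries were disjoint for 4 members, with Rps7 higher in knockout and Rplp0, Rps13 and Rps15a lower, and for 5.27% of all tested genes.

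Rplp0 lies on chromosome 5 at 115559467 to 115563727 on the + strand (mm10) and encodes the base of the stalk through which elongation factors reach the ribosome. It is also a common reference gene in quantitative PCR. Rplp0 measured 93.0, 102.2, 96.8 and 102.3 CPM in wild-type naïve libraries and 86.9, 97.1, 92.0 and 99.9 CPM in wild-type morphine libraries. In knockout naïve libraries it measured 47.3, 70.4, 66.2 and 65.99 CPM, and in knockout morphine libraries 64.3, 39.9, 46.7 and 64.1 CPM. Every knockout library was below every wild-type library, and Rplp0 was the only member of 82 for which all 8 knockout and all 8 wild-type libraries were disjoint, which held for 0.48% of all tested genes. The knockout libraries were also more spread among themselves than the wild-type libraries.

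The log2 fold change of Rplp0 was -0.66 ± 0.14 (SE, n = 4 per group) in naïve mice, where edgeR gave an adjusted p of 0.0519, and -0.79 ± 0.15 under morphine, with an edgeR adjusted p of 0.0298. The morphine call was lost without wild-type naïve library 3, any 1 of the 4 wild-type morphine libraries, or knockout morphine library 2 or 3 (edgeR adjusted p 0.0515 to 0.0946). The genotype difference averaged over treatments was added after these values were seen. It was -0.73 ± 0.10, or 0.605-fold (95% interval -0.95 to -0.50 on the log2 scale; edgeR adjusted p = 0.0019), and it remained called in all 24 alternatives run. The partners Rplp1 and Rplp2 had averaged genotype differences of -0.12 ± 0.05 (SE; edgeR adjusted p = 0.318) and -0.04 ± 0.03 (edgeR adjusted p = 0.779), and Rplp1 measured 194, 205, 197 and 211 CPM in wild-type naïve and 179, 179, 161 and 190 CPM in knockout naïve libraries.

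**Figure D4:**
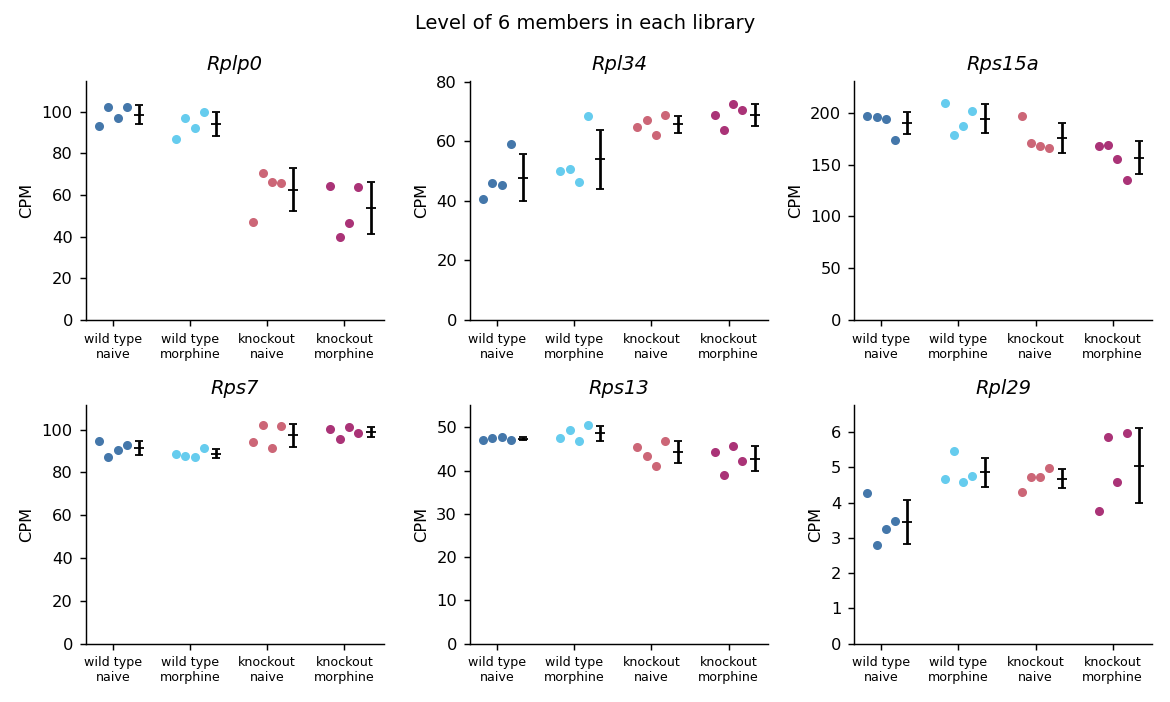
CPM of 6 members in each of the 16 libraries, by group. Points are libraries, and the bar beside them is the mean ± SD of 4 libraries; for Rplp0 all 8 knockout-labelled libraries, at most 70.4 CPM, lie below all 8 wild-type libraries, at least 86.9 CPM.

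Averaged over treatments, 4 of 82 members were called by edgeR, against 1.53% of all tested genes, 0.685% higher and 0.845% lower. Those that rose were Rpl34 and Rps7, and those that fell were Rplp0 and Rps13. Rpl34, a large subunit protein encoded on chromosome 3 (130726831 to 130730398, - strand), had 40.7, 46.0, 45.2 and 59.0 CPM in wild-type naïve and 50.1, 50.7, 46.3 and 68.4 CPM in wild-type morphine libraries. In knockout naïve libraries it had 64.9, 67.1, 62.1 and 68.8 CPM, and in knockout morphine libraries 68.7, 63.7, 72.5 and 70.6 CPM. Wild-type morphine library 4 was the only wild-type library within the knockout range. The log2 fold change was 0.41 ± 0.08 (SE; edgeR adjusted p = 0.0235), with 0.46 ± 0.12 in naïve mice and 0.36 ± 0.12 under morphine. The averaged call was lost without any 1 of 8 libraries (edgeR adjusted p 0.0508 to 0.0581), namely wild-type naïve 2 and 3, wild-type morphine 1 and 2, knockout naïve 2 and 4, and knockout morphine 3 and 4.

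Rps7, a small subunit protein that also binds the p53 regulator Mdm2, differed by less. It had means of 91.4 ± 3.2 and 88.8 ± 1.9 CPM in wild-type naïve and morphine libraries, and 97.3 ± 5.3 and 98.9 ± 2.5 CPM in the knockout groups (SD, n = 4). Its averaged log2 fold change was 0.12 ± 0.03 (SE; edgeR adjusted p = 0.0196), and it was not called without knockout naïve library 2 (adjusted p = 0.0540) or knockout naïve library 4 (adjusted p = 0.0532). Rps13 had 47.4 ± 0.3 and 48.6 ± 1.7 CPM in the wild-type groups and 44.3 ± 2.6 and 42.8 ± 2.9 CPM in the knockout groups. Its averaged log2 fold change was -0.14 ± 0.03 (SE; edgeR adjusted p = 0.0397), a call kept without only 4 of the 16 libraries in turn, wild-type morphine 3, knockout naïve 4 and knockout morphine 1 and 3, and otherwise lost (edgeR adjusted p up to 0.0880).

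Rps15a, one of the 4 members that followed the set least, was not called. It ran from 174 to 197 CPM in wild-type naïve, 179 to 210 in wild-type morphine, 166 to 197 in knockout naïve and 135 to 169 in knockout morphine libraries. The morphine groups were disjoint between genotypes and the naïve groups overlapped. The averaged log2 fold change was -0.21 ± 0.05 (SE; edgeR adjusted p = 0.0559).

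The neighbours of these members on the chromosome were examined after the values were seen. Within 2 Mb of Rplp0, 72 other genes were tested and 8 were called between genotypes averaged over treatments, 6 higher and 2 lower in knockout libraries. Of all tested genes 1.53% were called in this comparison. The nearest, Gcn1l1, which encodes a ribosome-binding activator of the stress kinase Gcn2, lies 1.53 kb away and had a log2 fold change of 0.34 ± 0.04 (edgeR adjusted p = 7.17e-05). Ssh1, Acacb, Coq5 and Sppl3 were among the others that were higher, and Cit and Sirt4 were lower. Within 5 Mb the tested genes numbered 122 and the called genes were still 8.

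**Figure D5:**
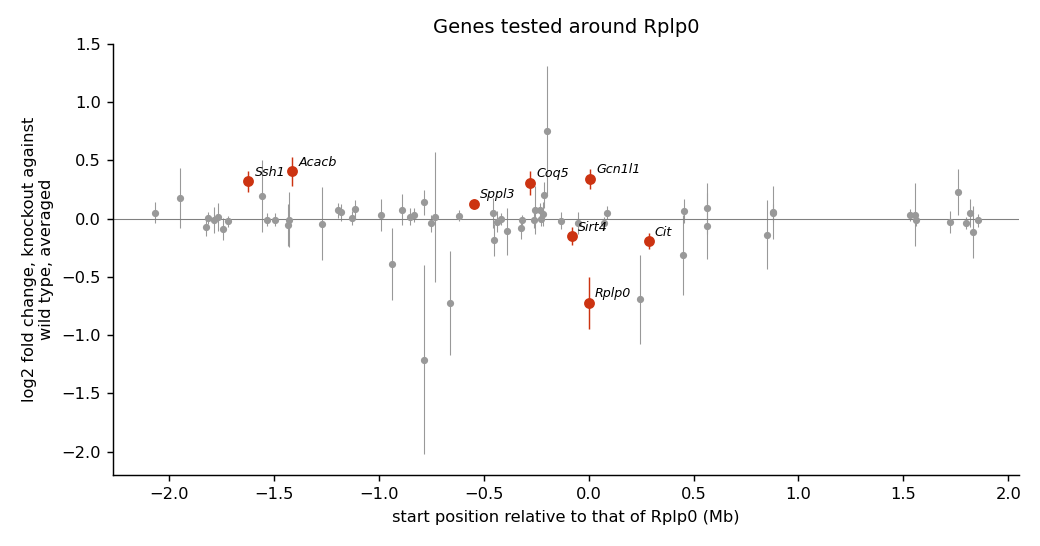
Log2 fold change between genotypes, averaged over treatments, of tested genes within 2 Mb of Rplp0 (1 called gene is not shown), against the distance of their start from that of Rplp0. Bars are 95% intervals and red points are called by edgeR; called genes lie on both sides of Rplp0 and in both directions, with Rplp0 at -0.73.

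Near Rps7, 2 of 12 other tested genes within 2 Mb were called in the averaged comparison, beside 1.53% of all tested genes. Adi1, an enzyme gene of methionine salvage 39.3 kb away, was lower by a log2 fold change of -0.78 ± 0.10 (edgeR adjusted p = 0.000951), and Gm9866 was higher by 0.40 ± 0.06 (edgeR adjusted p = 0.000729). Near Rpl34 none of 22 tested genes within 2 Mb was called, and near Rps13 none of 17. Within 5 Mb of Rps7, 4 of 53 other tested genes were called higher and 2 lower. In that window 1 of 54 was called near Rpl34, higher, and 1 of 71 near Rps13, lower.

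In the response to morphine no member passed the test for a difference between genotypes. The interaction, the morphine change in knockout minus that in wild-type libraries, was called for no member by edgeR, DESeq2 or limma-voom. Of all tested genes edgeR called 0.0%, DESeq2 called 107 genes and limma-voom 0. At an unadjusted p under 0.05 edgeR had 5 of 82 members, beside 2200 of 18111 tested genes. The members were Rps2 at 0.20 ± 0.06, Rpl12 at 0.20 ± 0.09, Rpl6 at 0.13 ± 0.06, Rps20 at 0.11 ± 0.05 and Rpl3l at -0.81 ± 0.37 on the log2 scale (SE). The median member value was 0.03, and without knockout naïve library 3 it was 0.001. The 95% interval lay within 1.25-fold for 66 of 82 members and for 47.1% of all tested genes. It did so for 28 of 29 initiation factor genes and 68 of 76 tested mitochondrial ribosomal protein genes.

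Genes that work with the ribosomal proteins were counted in the same fits, from lists chosen for their roles. Outside the symbol rule, Fau, a ribosomal protein fused to a ubiquitin-like protein, and Rack1, a scaffold on the small subunit, were called in no comparison. With morphine averaged over genotypes Fau had a log2 fold change of -0.06 ± 0.04 (SE; edgeR adjusted p = 0.235) and Rack1 of 0.01 ± 0.02 (edgeR adjusted p = 0.806). Of the 3 paralogs outside the rule, Rpl22l1 rose with morphine averaged over genotypes, by 0.16 ± 0.05 (edgeR adjusted p = 0.0401), and Rpl7l1 and Rsl24d1 did not pass the test. In that comparison 9.02% of all tested genes were called higher and 8.03% lower.

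The translation factors called with morphine averaged over genotypes were all higher. Of 29 initiation factor genes 9 rose and none fell, with a median log2 fold change of 0.05, beside 9.02% of all tested genes called higher and 8.03% called lower. They included Eif4a2, a helicase that unwinds mRNA leaders, at 0.15 ± 0.03 (edgeR adjusted p = 0.000829), Eif4b, its cofactor, at 0.08 ± 0.02 (edgeR adjusted p = 0.00442), and Eif5 at 0.09 ± 0.02 (edgeR adjusted p = 0.00721). Of 14 elongation factor and other TOP genes 3 rose, among them Eef1a1, which brings aminoacyl-tRNA to the ribosome, at 0.12 ± 0.02 (edgeR adjusted p = 0.00148). In knockout mice alone 4 of the 14 rose, where 5.67% of all tested genes did, and in wild-type mice none was called, where 2.34% of all tested genes rose; the interaction called none of the 14.

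Among regulators of ribosome output, single genes were called in both directions with morphine, in lists whose counts are to be read against the 17.1% of all tested genes called averaged over genotypes. Of 20 genes of mTORC1 and S6 kinase signalling 3 rose and 2 fell. Ddit4, an inhibitor of mTORC1 induced by stress and glucocorticoids, had 36.2 to 45.4 CPM in wild-type naïve and 65.7 to 76.9 CPM in wild-type morphine libraries, against 31.2 to 39.3 and 46.2 to 64.2 CPM in the knockout groups. Its averaged morphine log2 fold change was 0.71 ± 0.07 (edgeR adjusted p = 7.74e-06). Sesn1, another mTORC1 inhibitor, rose by 0.29 ± 0.04 (edgeR adjusted p = 3.67e-05), and Rps6kb2, an S6 kinase, fell by 0.19 ± 0.03 (edgeR adjusted p = 0.000419). Of 26 ribosome biogenesis genes 3 rose and 1 fell, close to that share: nucleolin (Ncl) rose by 0.13 ± 0.02 (edgeR adjusted p = 0.00049) and Rrs1, an assembly factor, had -0.24 ± 0.05 (edgeR adjusted p = 0.00492). Of 76 tested mitochondrial ribosomal protein genes 5 rose and none fell, below that share, led by Mrpl41 at 0.15 ± 0.03 (edgeR adjusted p = 0.00187).

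Between genotypes averaged over treatments these lists held 2 called genes, in a comparison where 1.53% of all tested genes were called. Ddit4 was lower in knockout libraries by a log2 fold change of -0.29 ± 0.07 (edgeR adjusted p = 0.0438), and Mrpl3, of the mitochondrial large subunit, was higher by 0.32 ± 0.06 (edgeR adjusted p = 0.0121). No initiation factor, elongation factor or biogenesis gene was called in that comparison.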

How the data were processed

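PolyA RNA from 16 libraries was counted per gene with HTSeq against mm10 (the submitters' processing notes name both, and limma). The authors deposited raw read counts, 1 file a library. The kit was TruSeq RNA v2, per the labels' protocols. Not given in the sources used here: aligner, annotation, strand setting, counting mode. Gene IDs were matched without version to GENCODE M21 (37607 of 38924).

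Here the counts were filtered with filterByExpr (minimum count 10), scaled by TMM and fitted with edgeR 4.0.16 (robust quasi-likelihood, R 4.3.3) in 1 model of 16 libraries and 4 groups, with p-values adjusted over 18111 genes. Alternatives used DESeq2 1.42.0, limma 3.58.1, sva 3.50.0, other scaling and filters, a replicate block, and each library left out. The fit was tested on simulated data. No 2 libraries matched within sampling noise (lowest chi-square per gene 3.72). Start windows are RefSeq's, from GRCm38.p6. Shared sequence was searched in GENCODE M21 transcripts by 50-base stretches.

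The members and lists were chosen with earlier results of these data known. Members named were, per comparison, up to 6 called ones a direction, the 5 highest and lowest levels, the 4 lowest correlations and largest spreads, a list of well-known members and paralogs, and of each other list up to 3 genes with the smallest p; Rps15a's and Rps2's group values, the disjoint members, the closely correlated members, the interaction members and the neighbours were chosen after their values were seen. P-values measure the spread between pools of 2 animals. For single libraries, gene totals of 19077000 to 54995323 counts limit precision mainly for the members of lowest count. Results for some genes are not reported here.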

Additional observations from a re-analysis of the deposited data

Results flagged for a closer look

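In groups of 4 libraries, 5 values of named members stood far from the other 3 of their group, of 92 gene-and-group sets examined with Dixon's ratio (critical value 0.829); chance marks about 1 in 20 such sets. Rps15a was low in wild-type naïve library 4, at 174 CPM against 194 to 197 in the others. Rps15a was high in knockout naïve library 1, at 197 CPM against 166 to 171. Rplp1 was high in wild-type morphine library 4, at 209 CPM against 179 to 180. Rpl3l was high in knockout morphine library 2, at 0.634 CPM against 0.316 to 0.352. Rpl30 was high in knockout morphine library 1, at 79.8 CPM against 52.7 to 56.1.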

How the results depend on the processing

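No named member's called fold change changed sign in any alternative run. Median member fold changes moved by less than the SD of single-library member medians within groups (0.062 on the log2 scale). That bound is wide for a fold change that rests on groups of 4 libraries, so it says little about stability. Of the 7 median fold changes, 3 lay close enough to 0 to change sign. Leaving out each library in turn, the median ran from -0.02 to 0.01 for morphine in wild type, from -0.001 to 0.07 for morphine in knockout and from -0.03 to 0.03 for genotype under morphine. Counts of called members moved more. For morphine in wild type (1) the count was 2 with DESeq2 and 0 with the replicate block, with 1 surrogate variable or with only the groups compared, and 0 to 1 with each library left out in turn. For morphine in knockout (0) it was 1 with DESeq2 size factors, 2 with the stricter filter, 3 with DESeq2 and 1 with the replicate block, and 0 to 1 leaving libraries out. For genotype in naïve mice (0) it was 1 with the stricter filter, limma-voom, the replicate block or only the groups compared, 2 with DESeq2, and 0 to 1 leaving libraries out. For genotype under morphine (1) it was 0 with no filter, 1 surrogate variable or only the groups compared, 4 with DESeq2, and 0 to 2 leaving libraries out. For morphine averaged (5) it was 3 with no filter and 1 to 7 leaving libraries out. For genotype averaged (4) it was 7 with DESeq2 and 1 to 5 leaving libraries out; the cause was not tested. Replicate numbers did not pair the libraries: same-numbered libraries deviated with r from -0.283 to 0.133, 3 of 24 pairs were above 0.1, and 2 of 16 libraries correlated best with their own number. With the replicate block the averaged morphine and genotype counts were 4 and 4 and the interaction 0. For members of the lowest counts, Rpl3l and Rpl24 with means of 17.9 and 15.8 counts a library, depth limits what could be detected.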
